A study of Mus musculus with 6 samples.

Results

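The 10 genes described here belong to the mammalian circadian clock: Arntl, Clock, Per1, Per2, Per3, Cry1, Cry2, Nr1d1, Nr1d2 and the output gene Dbp. They were chosen by symbol, and all 10 were found among the 13192 genes that the authors tested in ribosome-bound RNA of mouse cortex at postnatal day 25. The tested animals, Rheb cKO (3 libraries), are titled Rheb floxp/floxp with Ribo-HA k/+ and Syn-Cre and carry the genotype label Rheb knockdown. The Control animals (3 libraries) are titled Rheb floxp/floxp with Ribo-HA k/+, and their titles name no Cre. Both groups carry the floxed Rheb alleles and the tagged-ribosome allele, and they differ by Syn-Cre, usually the name of a Cre recombinase driven in neurons by a synapsin promoter. Cortical lysate was precipitated with an anti-HA antibody, so that ribosomes carrying the HA tag were collected with the mRNAs on them. How the ribosomes of animals without a named Cre came to carry the tag, whether each library is a separate animal, and the time of day at which cortex was collected are not stated by the labels. Values are the authors' FPKM, fragments per kilobase of gene model scaled also to the mapped fragments of a library, with 1 pooled value per gene and group, so no SD is given and the spread between libraries is unknown. If some libraries share an animal, the authors' q-values cover only the spread between these libraries, which may be technical.

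The clock is a loop of transcription and delayed repression that runs in most cells, cortical neurons and glia included. The proteins made from Arntl (also called Bmal1) and Clock pair up and switch on genes whose promoters hold an E-box, among them the Per and Cry genes, and the PER and CRY proteins then return to the nucleus and repress that pair. A second loop runs through Nr1d1 and Nr1d2, which encode REV-ERB proteins that repress Arntl, while Dbp encodes an output factor that acts on D-boxes. Rheb switches on the kinase complex mTORC1, which controls translation and has been linked to clock function in the mouse suprachiasmatic nucleus.

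RefSeq promoter windows (GRCm38.p6, which is the mm10 build, from 250 bases before to 50 after a start site) were at hand for 9 of the 10 genes (all but Per2), in 13 windows. These were searched on both strands for the E-box CACGTG, the E′-box CACGTT, the D-boxes TTATGTAA and TTACGTAA, the ROR elements TAGGTCA and TGGGTCA, and the cyclic AMP element TGACGTCA. No matches of different motifs overlapped in the stretches printed here. The stretches that hold a match upstream of the start site are shown because they hold the letters of motifs that clock factors are known to bind; whether these sites are bound was not tested. Each is written 5′ to 3′ on the strand of its gene, with the matches in capitals, and AACGTG is the E′-box read on the other strand.
Per1, chr11:69098771-69098800, plus strand: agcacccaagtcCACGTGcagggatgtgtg
Cry1, chr10:85185097-85185145, minus strand: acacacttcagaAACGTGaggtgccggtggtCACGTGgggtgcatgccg
Cry2, chr2:92434218-92434247, minus strand: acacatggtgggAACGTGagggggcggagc
Nr1d1, chr11:98775388-98775417, minus strand: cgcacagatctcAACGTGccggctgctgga
Per3, chr4:151044804-151044882, minus strand: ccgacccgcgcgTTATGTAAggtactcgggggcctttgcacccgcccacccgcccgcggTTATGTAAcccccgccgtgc

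Per1 and Cry1 held the E-box, 166 and 60 bases upstream of a start site. The E-box was present in 7.15% of the 32851 windows in the RefSeq table. Cry1, Cry2 and Nr1d1 held the E′-box, found in 4.68% of all windows. Per3 held the same D-box letters at 2 places, 205 and 158 bases upstream, and a D-box was present in 1.06% of all windows. Arntl held a ROR element (6.45% of all windows) 30 bases after a start site. The cyclic AMP element was in 0 of the 13 windows, against 1.79% of all windows. A match is a description of letters and not of binding.

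None of the 10 clock genes passed the authors' test. At a Cuffdiff q under 0.05 in the authors' deposited table, 0 were called higher and 0 lower in Rheb cKO, where 8.72% of all tested genes were called (4.14% higher and 4.58% lower). The smallest q among the 10 was 0.158, for Per1. At an unadjusted p under 0.05 there were 2 of the 10, Per1 and Cry2, both with a higher FPKM in Rheb cKO. At the same p there were 21.2% of all genes, counted in both directions, and 2 of 10 is close to that share. By direction, 1509 of the 13175 genes with a finite fold were higher and 1282 lower at that p. The log2 folds (Rheb cKO over Control throughout) ran from -0.28 for Per2 to 0.38 for Nr1d1, and 9 of 10 were above 0. Their median was 0.13, beside 0.03 for all genes with a finite fold, of which 54.6% were above 0, and beside 0.16 for 14 pan-neuronal markers. With folds centred on the median of those neuronal markers, 4 of the 10 were above 0, as were 32.2% of all genes.

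**Figure D1:**
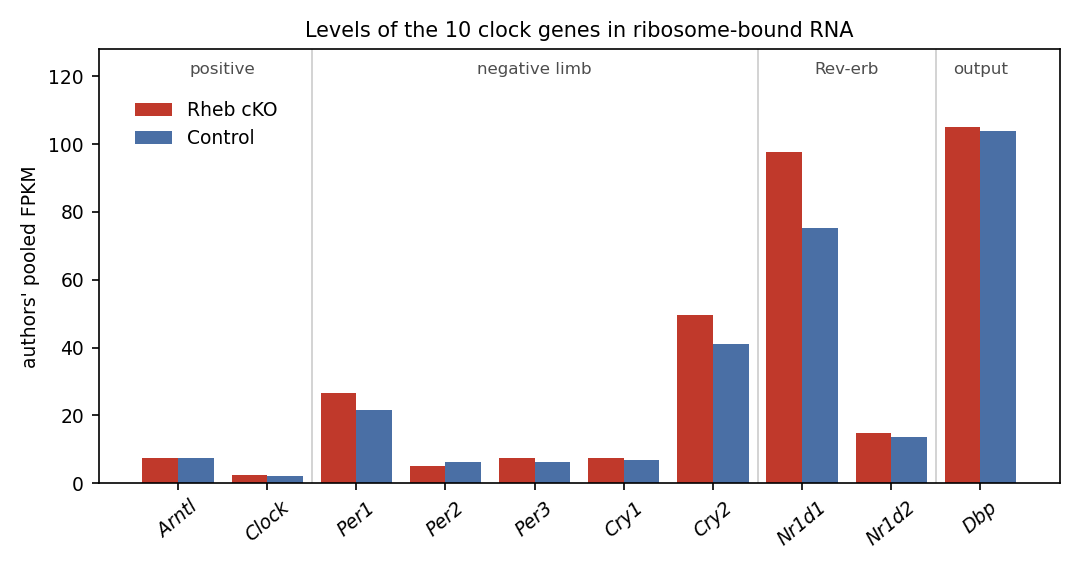
Authors' pooled FPKM (vertical axis, linear from 0) of the 10 clock genes in Rheb cKO (red, left bar of each pair) and Control (blue, right bar), grouped by role, with 1 pooled value per group and no error bar. Dbp, Nr1d1 and Cry2 stand highest in both groups, and the bars of each pair are of similar height, with the widest gap in FPKM for Nr1d1 (97.8 in Rheb cKO and 75.1 in Control).

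The positive limb, the activating pair, was close to its Control level. Arntl had 7.50 FPKM in Rheb cKO and 7.39 FPKM in Control, a log2 fold of 0.02 in the authors' deposited table (q = 0.967, Cuffdiff). Clock, which encodes the partner of ARNTL and was the least abundant of the 10 in both groups, had 2.36 FPKM in Rheb cKO and 2.17 FPKM in Control (log2 fold 0.12, q = 0.710 in the authors' deposited table). Neither difference passed the test. Npas2, a relative of Clock that can take its place beside ARNTL in the forebrain, was the more abundant of these partners. It had 11.4 FPKM in Rheb cKO and 9.10 FPKM in Control, with a log2 fold of 0.32 (p = 0.0227, q = 0.146, Cuffdiff) in the authors' deposited table. It too was not called.

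In the negative limb, the repressors, 4 of 5 genes had a fold above 0 and Per2 a fold below 0, and none was called. Per1, the period gene that is also induced quickly by neuronal activity and by glucocorticoids, had 26.5 FPKM in Rheb cKO and 21.6 FPKM in Control, a log2 fold of 0.29 (p = 0.0255, q = 0.158, Cuffdiff) in the authors' deposited table. Per2, its close relative, lay on the other side of 0, at 5.14 FPKM in Rheb cKO and 6.24 FPKM in Control (log2 fold -0.28, p = 0.0628, q = 0.273, Cuffdiff, in the authors' deposited table). These period genes thus had folds of nearly equal size and opposite sign, and whether their folds differ from each other cannot be tested from pooled values. Per3, the period gene that the mouse clock can run without, had 7.57 FPKM in Rheb cKO and 6.16 FPKM in Control (log2 fold 0.30, q = 0.739 in the authors' deposited table). Cry2, the more abundant cryptochrome, had 49.6 FPKM in Rheb cKO and 41.2 FPKM in Control, a log2 fold of 0.27 (p = 0.0284, q = 0.169, Cuffdiff) in the authors' deposited table. Cry1, the stronger repressor of the cryptochrome pair in mouse, had 7.46 FPKM in Rheb cKO and 6.79 FPKM in Control (log2 fold 0.14, q = 0.694 in the authors' deposited table). Each group thus held several times more Cry2 than Cry1 per unit of length.

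The median log2 fold was 0.27 over the 5 genes of the negative limb and 0.07 over the 2 of the positive limb, a difference of 0.19 that has no test. With Npas2 added to the positive limb the difference of medians was 0.14, and without Per3 it was 0.13. By means, which give Per2 more weight, the negative limb stood at 0.14 and the positive limb at 0.07. With Npas2 added the mean of the positive limb was 0.16, above that of the negative limb, so the order depends on the summary used. Centred on the pan-neuronal markers, the median of the negative limb was 0.11 and that of the positive limb -0.085, with the difference as before. Summed FPKM was 96.3 in Rheb cKO and 82.0 in Control for the negative limb. For the positive limb it was 9.86 in Rheb cKO and 9.55 in Control. With Npas2 added, the positive limb summed to 21.2 in Rheb cKO and 18.7 in Control. The negative limb had the higher sum in both groups, but over 5 genes against 2, or 3 with Npas2.

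In the Rev-erb loop, Nr1d1 had the highest fold of the 10 and Nr1d2 a small one, and neither passed the test. Nr1d1 had 97.8 FPKM in Rheb cKO and 75.1 FPKM in Control, a log2 fold of 0.38 with a q of 0.616 (Cuffdiff) in the authors' deposited table. Nr1d2, which encodes the second REV-ERB, had 14.7 FPKM in Rheb cKO and 13.6 FPKM in Control (log2 fold 0.11, q = 0.676 in the authors' deposited table). Arntl, the gene that REV-ERB proteins repress, had the fold of 0.02 given above.

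Dbp, the D-box output factor and a strong E-box target, was the most abundant of the 10 in both groups and nearly equal between them. It had 105 FPKM in Rheb cKO and 104 FPKM in Control, with a log2 fold of 0.02 (q = 0.986, Cuffdiff) in the authors' deposited table. Its relatives Tef and Hlf, which bind the same element, were not called either. Tef had 88.5 FPKM in Rheb cKO and 87.1 FPKM in Control (log2 fold 0.02, q = 0.954 in the authors' deposited table), and Hlf had 30.0 FPKM in Rheb cKO and 27.1 FPKM in Control (log2 fold 0.15, q = 0.537 in the authors' deposited table).

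The order of levels, which FPKM allows because it is scaled to length, was the same in both groups for the 5 most abundant genes: Dbp, Nr1d1, Cry2, Per1 and Nr1d2. Clock stood last in both. Between them lay Per3, Arntl, Cry1 and Per2, from 7.57 down to 5.14 FPKM in Rheb cKO, and Arntl, Cry1, Per2 and Per3, from 7.39 down to 6.16 FPKM in Control. Without values per library, no neighbours in this order can be shown to differ. Dbp, Nr1d1 and Per3 also share a locus with other tested genes, and the part of those genes in their levels was not tested. Among the 4 genes with an E-box or E′-box in a promoter window, the log2 folds were 0.29 (Per1), 0.14 (Cry1), 0.27 (Cry2) and 0.38 (Nr1d1). Among the 5 with windows but no such match they were 0.30 (Per3), 0.12 (Clock), 0.11 (Nr1d2), 0.02 (Arntl) and 0.02 (Dbp). Only the short windows around start sites were searched. Dbp, described above as a strong E-box target, falls in the group without a match, so the grouping does not separate E-box targets from other genes. Per2, the member without a window in the table, had the fold of -0.28, so this grouping leaves out the gene on the other side of 0.

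The observed folds of the clock genes were of a size at which few genes were called. Between the lowest and the highest mean FPKM of the 10 genes (2.26 and 104) the table held 9204 genes, of which 8.97% were called. Of the 6690 among them with an absolute log2 fold under 0.3, 0 were called by Cuffdiff, and 16.9% of those from 0.2 to 0.3 had an unadjusted p under 0.05. Of the 10 clock genes, 9 had folds under that size. Nr1d1 lay in the step from 0.3 to 0.4, in which 6.68% of 988 genes were called. The smallest absolute log2 fold called in this range of levels was 0.34. These shares go by the observed fold, on which the call itself depends, so they describe where calls began in this table and do not measure the power to detect a true change.

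**Figure D2:**
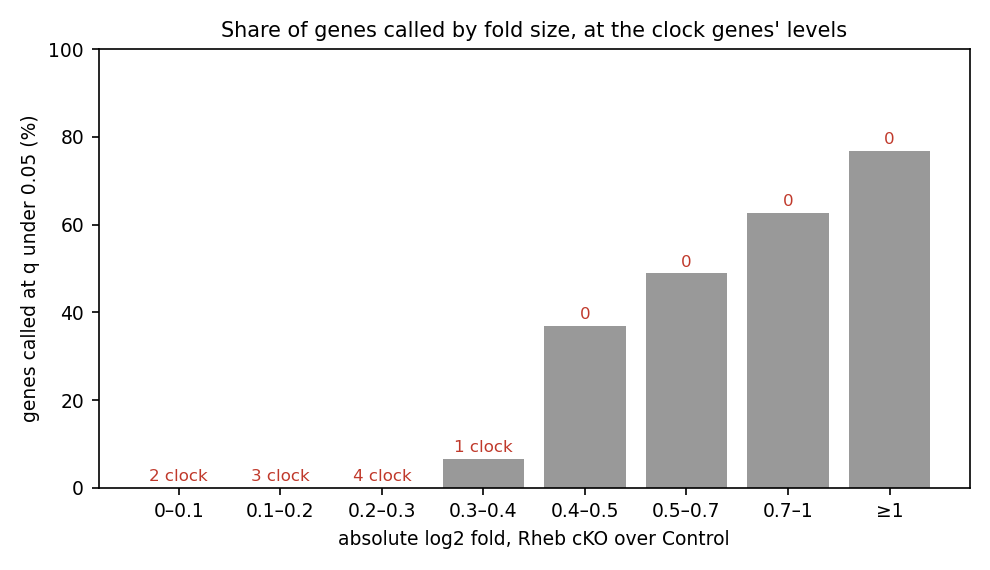
Percentage of genes called at q under 0.05 (vertical axis) in steps of absolute log2 fold (horizontal axis), over the 9204 genes with a mean FPKM within the range of the clock genes; red labels give the number of clock genes in each step. The share called is 0 in the 3 lowest steps, which hold 9 of the 10 clock genes, and reaches 76.9% at folds of 1 or more.

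An error can be attached to each fold through the authors' score. Cuffdiff's statistic is the log fold divided by its estimated error, so the fold over the score gives an implied error on the log2 scale. For 7 of the 10 it ran from 0.21 (Cry2) to 0.28 (Per2), below the median of 0.31 over all genes. The remaining 3 were wider, at 0.65 for Per3, 0.62 for Nr1d1 and 0.49 for Dbp. These are also the 3 whose locus in the authors' deposited table is shared with other tested genes. Every absolute fold except those of Per1, Per2 and Cry2 was smaller than its own implied error, and those 3 were at most 1.29 times theirs, the absolute score of Per1. The p-values were not read from a normal curve of this score: 1.29 would give 0.199 on such a curve, against the p of 0.0255 for Per1 in the authors' deposited table.

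**Figure D3:**
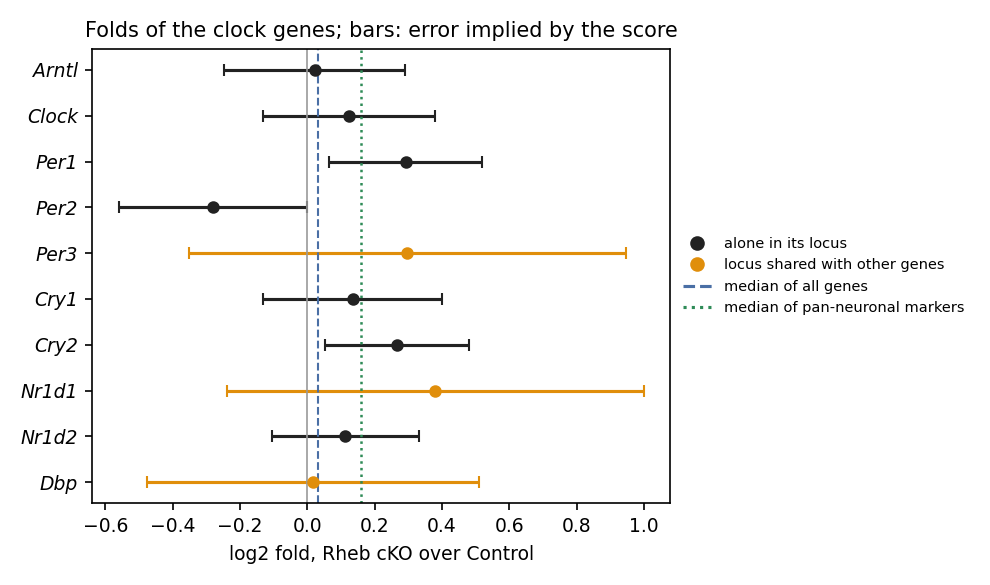
Log2 fold of Rheb cKO over Control (horizontal axis) for each clock gene; the bar on each side is 1 implied error, the fold divided by the authors' score. Per3, Nr1d1 and Dbp (orange), whose locus holds other tested genes, have the widest bars, and the points lie from -0.28 to 0.38 around the median of all genes (dashed, 0.03) and of pan-neuronal markers (dotted, 0.16).

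Nr1d1 runs from 98767932 to 98775333 on chromosome 11, minus strand (mm10, GENCODE M21), and its 3′ end overlaps Thra, the thyroid hormone receptor gene of the plus strand (98740638 to 98769006), over 1075 bases. Thra was called higher, with 1023 FPKM in Rheb cKO and 684.8 FPKM in Control (log2 fold 0.58, q = 0.00161 in the authors' deposited table). Libraries were made with a stranded kit, but no source used here gives the strand setting of the counting, and the part of Thra in the value of Nr1d1 was not tested. Dbp (chromosome 7, 45705088 to 45710203, plus strand) overlaps Sphk2 on the minus strand over 737 bases. Sphk2, a sphingosine kinase gene, had 41.1 FPKM in Rheb cKO and 45.0 FPKM in Control (log2 fold -0.13, q = 0.843 in the authors' deposited table). Rpl18, a ribosomal protein gene in the same locus that does not overlap Dbp, had 706.7 FPKM in Rheb cKO and 732.4 FPKM in Control (log2 fold -0.05, q = 0.929 in the authors' deposited table). Per3 (chromosome 4, 151003652 to 151044665, minus strand) lies wholly within the span of Camta1, a gene of the same strand. Camta1, which encodes a calmodulin-binding transcription activator, had 42.3 FPKM in Rheb cKO and 33.2 FPKM in Control (log2 fold 0.35, q = 0.284 in the authors' deposited table). Vamp3, a vesicle fusion protein gene that shares the locus without overlapping Per3, had 5.38 FPKM in Rheb cKO and 8.75 FPKM in Control (log2 fold -0.70, q = 0.416 in the authors' deposited table). Each of the other members was the only tested gene of its locus in the authors' deposited table. Their spans are given in mm10 from GENCODE M21. Per1 runs from 69095217 to 69109960 on the plus strand of chromosome 11, and Per2 from 91415982 to 91459324 on the minus strand of chromosome 1. Cry1 spans 85131700 to 85185064 of chromosome 10 and Cry2 92403646 to 92434043 of chromosome 2, both on the minus strand. Arntl spans 113207465 to 113314126 on the plus strand of chromosome 7, Clock 76209868 to 76304792 on the minus strand of chromosome 5, and Nr1d2 18204054 to 18239127 on the minus strand of chromosome 14. Over the 7 clock genes alone in their locus the median log2 fold was 0.12.

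Of 63 accessory clock genes on 5 lists, 58 were tested, and 1 was called higher and 1 lower, where 8.72% of all tested genes were called. Without adjustment, at a p under 0.05, 11 of the 58 stood out, 10 with a higher and 1 with a lower FPKM in Rheb cKO. That is 19.0%, next to 21.2% of all genes. Of the 13175 genes with a finite fold, 1509 were higher and 1282 lower at that p. The median log2 fold of the 58 was 0.10, above the 0.03 of all genes and below the 0.16 of the 14 pan-neuronal markers. Of the 58 folds 48 (82.8%) were above 0, beside 54.6% for all genes. Both called genes were on the list of clock-controlled outputs. Cdkn1a, the cell cycle inhibitor p21, rose to 24.3 FPKM in Rheb cKO, against 18.5 FPKM in Control (log2 fold 0.39, q = 0.0452 in the authors' deposited table). Tsc22d3, which encodes the glucocorticoid-induced leucine zipper protein, fell to 36.7 FPKM in Rheb cKO, against 52.7 FPKM in Control (log2 fold -0.52, q = 0.00161 in the authors' deposited table). Both also answer to pathways outside the clock.

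Among 12 other transcription factors of the clock, 0 were called by Cuffdiff, 1 (Npas2) had an unadjusted p under 0.05, and the median log2 fold was 0.10. Over all tested genes 8.72% were called and 21.2% had such a p. Rora, a nuclear receptor that activates Arntl through the ROR element, had 2.28 FPKM in Rheb cKO and 2.18 FPKM in Control (log2 fold 0.06, q = 0.920 in the authors' deposited table). Its relative Rorb, which is prominent in cortical layer IV, had 3.69 FPKM in Rheb cKO and 3.42 FPKM in Control (log2 fold 0.11, q = 0.734 in the authors' deposited table). Thus the activators of Arntl, like its repressors, were not called.

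Among genes that act on clock proteins or with them in the nucleus, folds lay on both sides of 0. These counts are to be read beside all genes, of which 54.6% had a fold above 0. Of all tested genes, 8.72% were called and 21.2% had an unadjusted p under 0.05. Of 14 kinases and phosphatases 0 were called by Cuffdiff (3 higher at an unadjusted p under 0.05), 12 folds were above 0 and 2 below, and the median log2 fold was 0.06. Csnk2b, the regulatory subunit of casein kinase 2, had 308 FPKM in Rheb cKO and 286 FPKM in Control (log2 fold 0.11, q = 0.750 in the authors' deposited table), and the phosphatase gene Ppp1cc had 238 FPKM in Rheb cKO and 242 FPKM in Control (log2 fold -0.02, q = 0.968 in the authors' deposited table). Of 11 ubiquitin pathway genes 0 were called by Cuffdiff (1 higher at an unadjusted p under 0.05), 9 folds were above 0 and 2 below, and the median was 0.06. Skp1a and Cul1, shared subunits of the ligases that mark PER and CRY for degradation, had log2 folds of 0.06 (q = 0.932) and 0.12 (q = 0.843) in the authors' deposited table. Of 13 chromatin and RNA cofactors 0 were called by Cuffdiff (2 higher at an unadjusted p under 0.05), 10 folds were above 0 and 3 below, and the median was 0.19. Sfpq and Nono, RNA-binding partners of the PER complex, had log2 folds of 0.24 (q = 0.492) and 0.19 (q = 0.393) in the authors' deposited table.

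Lists of genes under signals known to reset or feed the clock held calls in both directions, to be read beside the 4.14% of all tested genes called higher and the 4.58% called lower. The lists were chosen with earlier results of these data known, so these counts are a description and not a test. Among 8 temperature-responsive genes, 2 were called higher and 1 lower. Rbm3, a cold-induced RNA-binding protein gene, rose to 68.9 FPKM in Rheb cKO, against 25.5 FPKM in Control (log2 fold 1.44, q = 0.00161 in the authors' deposited table). Cirbp, whose cold-induced protein is known to bind Clock mRNA in mouse cells, rose to 205.5 FPKM in Rheb cKO, against 98.0 FPKM in Control (log2 fold 1.07, q = 0.00161 in the authors' deposited table). The heat shock gene Hsph1 fell to 58.3 FPKM in Rheb cKO, against 80.9 FPKM in Control (log2 fold -0.47, q = 0.00406 in the authors' deposited table). Clock itself, with its fold of 0.12, was not called.

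Of 13 glucocorticoid-responsive genes, 3 were called higher and 1, Tsc22d3, lower, with a median log2 fold of 0.34. Those higher in the authors' deposited table were Klf9, a transcription factor gene, with a log2 fold of 0.70 (q = 0.00161), Fkbp5, a chaperone that tunes the glucocorticoid receptor, with 0.61 (q = 0.00161), and Zbtb16, a zinc finger factor, with 0.61 (q = 0.0200). Of 10 activity-induced genes, 2 were called higher and 2 lower. Their folds lay above 0 for 4 and below 0 for 6, with a median log2 fold of -0.15. In the authors' deposited table Npas4 (log2 fold 1.29, q = 0.00161) and Junb (0.79, q = 0.00161), both transcription factor genes, were higher. Sik1, a kinase that restrains induction of Per1 by light in mouse, fell to 2.77 FPKM in Rheb cKO, against 4.57 FPKM in Control (log2 fold -0.72, q = 0.00291 in the authors' deposited table). Arc, the other gene called lower, had a log2 fold of -0.68 (q = 0.00161 in the authors' deposited table). Per1, which both pathways can induce, had the uncalled fold of 0.29.

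**Figure D4:**
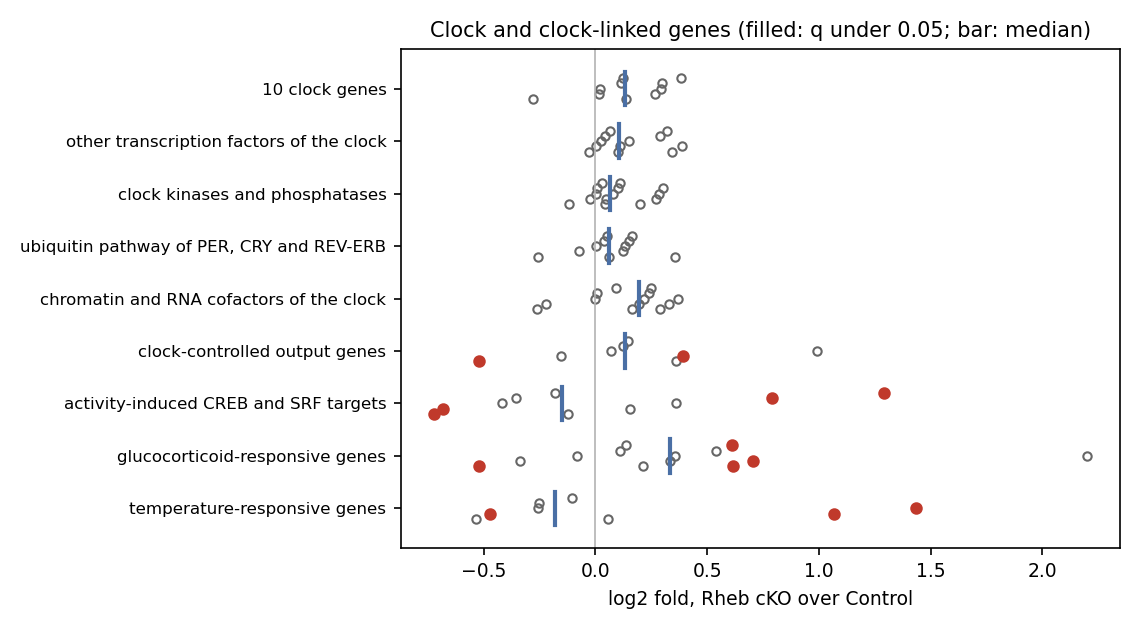
Log2 fold of Rheb cKO over Control (horizontal axis) for the 10 clock genes and 8 lists of clock-linked genes; each point is a gene, filled where q is under 0.05, and the blue bar is the list's median. All points of the clock genes are open, while the activity, glucocorticoid and temperature lists hold filled points on both sides of 0.

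As a check of the labels, Rheb fell to 9.20 FPKM in Rheb cKO, against 22.7 FPKM in Control (log2 fold -1.30, q = 0.00161 in the authors' deposited table). Markers of other cell types differed as well. All 14 oligodendrocyte markers were called lower, with a summed FPKM of 1393 in Rheb cKO and 4027 in Control. Astrocyte markers (2 called higher and 4 lower of 14) summed to 1920 in Rheb cKO and 2422 in Control. Aldoc alone had 1142 in Rheb cKO and 1554 in Control, so this sum leans on that gene. The 8 tested endothelial and mural markers (4 called lower) summed to 42.3 in Rheb cKO and 76.9 in Control, of which Vtn had 24.4 and 51.5. Those called were the mural genes Kcnj8, Rgs5, Vtn and Acta2. The mural gene Pdgfrb and the endothelial genes Cldn5, Ly6c1 and Itm2a were not called. The 9 tested microglia markers (0 called by Cuffdiff, 2 higher at an unadjusted p under 0.05) summed to 31.8 in Rheb cKO and 27.0 in Control. Pan-neuronal markers, with 1 of 14 called higher, summed to 5962 in Rheb cKO and 5898 in Control, so the labelled cell type, neurons, is present with RNA of glia beside it, and no tested marker was at 0. Clock genes are expressed in neurons and glia alike, and the part of these markers in the folds of the clock genes was not tested. Fewer cells of a type, less RNA per cell and less carry-over of their RNA into the anti-HA precipitate cannot be told apart in these samples.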

How the data were processed

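RNA bound to HA-tagged ribosomes of mouse cortex was sequenced in 3 Rheb cKO and 3 Control libraries, grouped by title. The tools listed in the submitters' processing notes are Cuffdiff 2.2.1 and TopHat2 2.1.0, with mm10 as the build. No source used here gives the annotation release, strand setting or library scaling. The authors deposited, per the file headers, 1 FPKM value per gene and group, a log2 fold of Rheb cKO over Control without a pseudocount, a test score, and a p-value and q-value per gene. The p-values go no lower than 5e-05. Library depth is unknown, so no counting interval is given, and no test across libraries was possible.

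A call is the authors' q under 0.05 over 13192 genes. List medians leave out 17 genes listed at 0 in a group. The implied error is the fold divided by the score. Gene spans are from GENCODE M21, counted from 1. 1 line of the longer table was empty, and a column of the authors' marks was not used.

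The members and lists were chosen with earlier results of these data known. The rule for naming genes took the 10 members, Rheb, Npas2, Rora, Rorb, every called accessory clock gene, and from each list the 3 called genes with the highest absolute fold or, with fewer than 2 called, the 2 most abundant. Genes sharing a locus with a member, Arc and the cell type markers given by name were added after their values were seen. Alternatives changed the threshold, the filter on low FPKM, the pseudocount, the scaling and a trend on transcript length (longest GENCODE transcript, 20 bins). The adjustment and trend steps were checked on simulated data. Scripts ran under Python 3.11.15 with pandas 2.3.3, numpy 2.4.6, matplotlib 3.10.9 and scipy 1.17.1.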

Additional observations from a re-analysis of the deposited data

How the results depend on the processing

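The count of clock genes called stayed at 0 in each direction at a q under 0.01 or 0.10 and with p-values readjusted over genes that averaged at least 1 or at least 5 FPKM. Pseudocounts and scalings leave the authors' q-values as they are, so they can turn the direction of a call but not make or end one. Without adjustment (p under 0.05) 2 clock genes were higher and 0 lower. Of the accessory clock genes, 1 was called higher as reported, 0 at a q under 0.01, 3 at a q under 0.10 and 10 at an unadjusted p under 0.05, while 1 was called lower under each of these. The median of the negative limb ran from 0.11 to 0.28 and that of the positive limb from -0.085 to 0.12, both lowest when centred on pan-neuronal markers, and their difference ran from 0.13 to 0.25. These ranges hold for medians only. By means, the positive limb with Npas2 (0.16) stood above the negative limb (0.14). No error is known for these medians or means.

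Small folds changed sign with the centring. Centred on pan-neuronal markers, which lowers every fold by 0.16, Arntl stood at -0.14, Dbp at -0.14, Nr1d2 at -0.046, Clock at -0.034 and Cry1 at -0.023. That reference is itself loose: the folds of the 14 markers ran from -0.24 to 0.34, with 8 above 0 and 6 below. Centred on the median gene at a mean FPKM of at least 1 (a shift of 0.03), Arntl stood at -0.010 and Dbp at -0.015. With the length trend removed, Clock stood at -0.00013. No paired analysis was possible because the deposited columns are pooled per group, and for the same reason no replicate could be left out. Pooled values without depth limit what can be said of the least abundant gene, Clock.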

Other observations

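The implied error, the fold divided by the score, varied with how many tested genes shared a locus over the whole table. Its median was 0.29 over 9906 genes alone in their locus, 0.44 over 2165 genes in a locus of 2 and 0.69 over 1104 genes in a locus of 3 or more. The share of genes called at a q under 0.05 was 10.6%, 3.70% and 1.36% in these classes. Per3 and Dbp belong to the last class and Nr1d1 to the one before it.

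Of the 1146 called genes with a finite fold, 489 had an absolute score under 1.96, the 2-sided 0.05 point of a normal curve, so the authors' p-values were smaller for these than a normal reading of the score would give.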
